A study of Mus musculus with 8 samples.

Results

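The 9 genes described here encode liver enzymes of methionine and one-carbon metabolism, namely Mat1a, Gnmt, Bhmt, Ahcy, Cbs, Cth, Pemt, Shmt1 and Gamt. They were chosen by name, and each stood on 1 row of a table of reads per gene that holds 19348 gene identifiers. RNA was sequenced from liver tissue taken at an age of 5 weeks, giving 5 Stab1 knockout and 3 wild-type libraries. Stab1 codes for stabilin-1, an endocytic receptor that clears ligands from blood in the liver sinusoids. No other allele or treatment is named. How the knockout was made, the strain, the sex and the number of animals are not stated in the labels.

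Methionine is activated to S-adenosylmethionine (SAM), the methyl donor of most methylation reactions, and the liver is the main site of its turnover. Methyl transfer leaves S-adenosylhomocysteine, which is cleaved to homocysteine, and homocysteine is either methylated back to methionine or passed by transsulfuration to cysteine. Folate carries the one-carbon units that serine and glycine supply, and betaine, made from choline, supplies methyl groups by a separate route.

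None of the 9 genes passed the test for a difference between the genotypes. All 9 were among the 12338 genes tested, 0 were called at an adjusted p of 0.05 by edgeR's quasi-likelihood test, and 0 had an unadjusted p below 0.05. Over all tested genes 0.227% were called (28 genes, 0.0729% higher and 0.154% lower in knockout) and 13.6% had an unadjusted p below 0.05. The median log2 fold change, knockout against wild type, was 0.06 over the 9 members and -0.01 over all tested genes. The knockout and wild-type levels overlapped for all 9 members, while they did not overlap for 6.65% of tested genes (3.04% higher and 3.61% lower in knockout). Without knockout library 1 there were again 0 members called, against 0.928% of all genes (0.415% higher, 0.513% lower), and the members' median was 0.155. DESeq2 called 0 of 9 with all libraries, against 0.884% of genes, and 0 of 9 without knockout library 1, against 8.61%. One further fit, chosen after these libraries were seen to stand apart, left out knockout library 1 and wild-type library 3. It called 1 of 9 members, Cbs, lower in knockout, against 19.9% of all genes (10.6% higher, 9.27% lower).

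Knockout library 1 held 4.845 M reads and the others 8.942 to 10.789 M. Stab1 had 5 to 16 reads in the knockout and 474 to 594 in the wild-type libraries. Xist, read only from an inactive X chromosome, had 3 reads in knockout library 1 and 4445 to 8222 elsewhere, and Y-linked Ddx3y 320 reads there and 0 to 4 elsewhere, so that this library was male by these reads and the others female. Wild-type library 3 stood apart from wild-type libraries 1 and 2. The summed level of 12 periportal hepatocyte markers was 7538 CPM there, against 9166 and 11703 CPM in the other wild-type libraries and 7506 to 8629 CPM in knockout libraries. That of 10 pericentral markers was 12683 CPM there, against 8699 and 9530 CPM in the other wild-type libraries and 7056 to 11652 CPM in knockout libraries. CPM are reads scaled to a common library size. The median share of a gene's length covered by reads was 53.4% in knockout library 1, 59.6% to 67.8% in knockout libraries 2 to 5, and 64.5% to 71.1% in the wild type. All 8 hepatocyte markers were detected, and their sum was 94633 to 161450 CPM for the knockout group against 172380 to 182090 CPM for the wild type. Alb, the albumin gene, alone took 4.91% to 10.2% of the reads of a knockout library, against 11.6% to 12.9% for a wild-type one. So abundant a gene can set such a sum. The sum was not taken without Alb, so it does not show a difference in hepatocyte markers at large. Of other cell types, 8 of 8 erythroid markers summed to 92.8 to 216 against 85.5 to 96.6 CPM. Cholangiocyte markers, 8 of 8 detected, summed to 56.9 to 133 against 54.49 to 65.98 CPM. Of 10 sinusoidal endothelial markers, Stab1 among them, all were detected, at 256 to 331 against 386 to 509 CPM, and without Stab1 itself the sum was 255 to 329 against 339 to 452 CPM. Exocrine pancreas markers summed to 38.1 to 88.4 against 25.8 to 33.2 CPM, with Cpa1, Prss1 and Cel at 0. The part of these differences in the results below was not tested, and in bulk tissue fewer cells of a type and less RNA per cell cannot be told apart.

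The 9 genes together took 0.973%, 1.33%, 0.987%, 1.37% and 1.40% of the scaled library size in knockout libraries 1 to 5 and 1.38%, 1.16% and 0.927% in wild-type libraries 1 to 3. Compared per length, as RPKM, reads scaled to gene length and library size, Bhmt had the highest wild-type level at 1626 ± 749 RPKM (SD, n = 3). Mat1a at 1008 ± 93.8, Gnmt at 973 ± 257 and Ahcy at 716 ± 41.7 RPKM followed, and these neighbours in the order overlapped over the 8 libraries. Pemt was at 399 ± 52.3 RPKM, and none of its 8 values reached those of the 4 genes above it. Next came Cbs at 231 ± 74.2, Cth at 208 ± 57.8 and Gamt at 186 ± 42.2 RPKM, whose ranges overlapped one another, and Cth also reached into the range of Pemt. Shmt1 was lowest at 130 ± 16.9 RPKM, with a range that overlapped that of Cbs. In knockout livers Bhmt was again the highest at 1707 ± 349 RPKM (SD, n = 5) and Shmt1 the lowest at 111 ± 12.5 RPKM. Every member was read at depth, with at least 797 reads in any library, and reads covered at least 94.6% of each gene's length in every library.

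**Figure D1:**
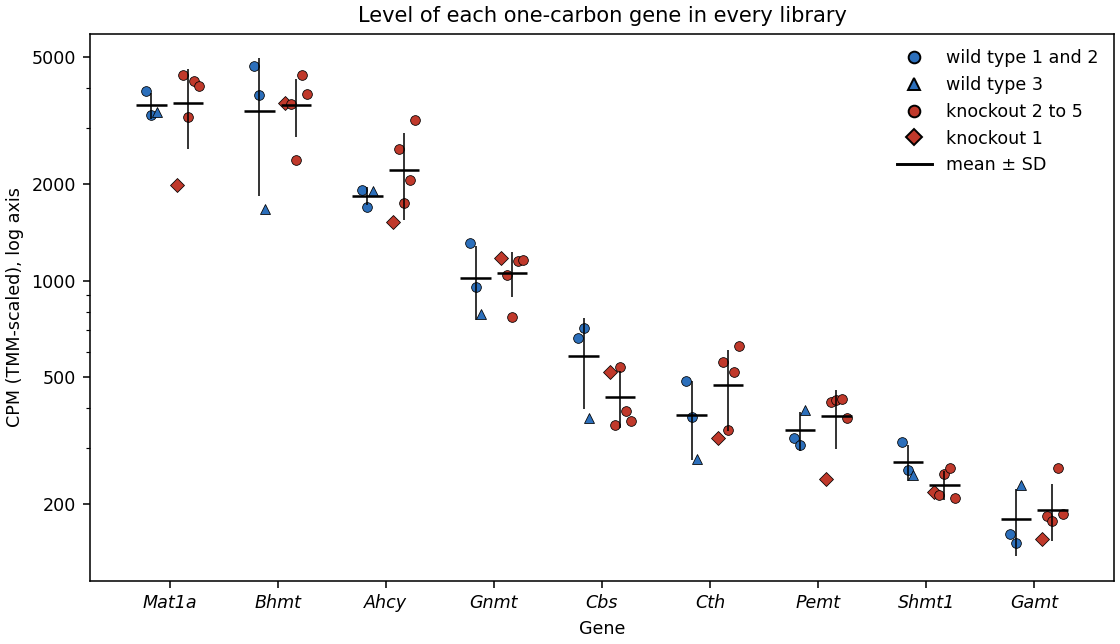
Level of each of the 9 genes in every library, in CPM on a log axis, for 3 wild-type (blue) and 5 knockout (red) libraries, with group means and SD as bars. The groups overlap for every gene, and wild-type library 3 (triangle) lies apart from the other wild-type libraries for Bhmt and Cbs.

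Counts of Ahcy and Bhmt are less certain than those of the other members, because parts of their transcripts recur in other genes. Of the 50-base words in the GENCODE M21 transcript of Ahcy, 77.0% also occurred in transcripts of other genes, and for Bhmt 61.5% did. The share was 4.81% for Shmt1, 1.54% for Cbs, and 0 for Mat1a, Gnmt, Cth, Pemt and Gamt. Gm4737 held 74.1% of the Ahcy words and Gm9826 33.9%. The Gm4737 coding sequence of 1299 bases was 99.7% identical to that of Ahcy, and of the Bhmt words Gm5096 held 56.9% and Bhmt-ps1 31.8%. Their longest identical coding run was 575 bases, 475 to 1049 of each, within which Ahcy and Gm4737 cannot be told apart. The following coding stretches, bases 990 to 1139 of each, lie around the end of that run, with differing bases in capitals.
Ahcy: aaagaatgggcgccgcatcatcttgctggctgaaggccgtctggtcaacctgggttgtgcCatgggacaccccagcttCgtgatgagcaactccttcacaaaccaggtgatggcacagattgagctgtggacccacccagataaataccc
Gm4737: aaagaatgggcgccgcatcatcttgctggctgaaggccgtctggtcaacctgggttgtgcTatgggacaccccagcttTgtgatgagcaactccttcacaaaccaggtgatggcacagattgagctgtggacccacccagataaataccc
The 150 bases hold 2 differences, which is denser than over the coding sequence as a whole. The table counts uniquely mapped reads, yet reads covered 97.4% to 98.6% of Ahcy and 97.9% to 99.4% of Bhmt, so stretches with a copy elsewhere did hold counted reads. Neither the read length nor the sequences used for mapping are stated in the sources here.

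Bhmt and its homologue Bhmt2 share less, with a longest identical coding run of 59 bases. The stretch of 120 bases around that run, coding bases 849 to 968 of Bhmt and 822 to 941 of Bhmt2, shows the part in which the pair is most alike over an unbroken run, and the 5 differing bases are in capitals.
Bhmt: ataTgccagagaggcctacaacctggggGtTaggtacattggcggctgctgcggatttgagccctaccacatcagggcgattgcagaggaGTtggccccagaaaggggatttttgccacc
Bhmt2: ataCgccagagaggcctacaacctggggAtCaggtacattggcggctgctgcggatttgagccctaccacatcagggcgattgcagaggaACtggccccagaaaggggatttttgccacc
Mat1a and Mat2a shared at most 15 identical coding bases in a row, and Shmt1 and Shmt2 at most 19.

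Mat1a encodes the methionine adenosyltransferase of adult liver, which makes SAM. Its level was 1983, 4401, 3250, 4217 and 4057 CPM in knockout libraries 1 to 5 and 3918, 3304 and 3376 CPM in wild-type libraries 1 to 3. Knockout library 1 was the lowest of all libraries and knockout library 2 the highest, so the knockout range enclosed the wild-type range. The log2 fold change was 0.02 (95% interval -0.52 to 0.56, edgeR adjusted p = 0.975), and without knockout library 1 it was 0.17 (-0.17 to 0.50, adjusted p = 0.499). Leaving out single libraries gave -0.06 to 0.17, with the sign changed in 5 of the 8 fits.

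Of 3 methyltransferases that consume SAM, Gnmt encodes glycine N-methyltransferase, which makes sarcosine and disposes of surplus SAM. Gnmt was at 1175, 1041, 766, 1154 and 1156 CPM in knockout libraries 1 to 5 and 1312, 957 and 787 CPM in wild-type libraries 1 to 3. The spread within wild type was wider than that within knockout (SD of 268 against 172 CPM). The Gnmt log2 fold change was 0.06 (95% interval -0.40 to 0.52, edgeR adjusted p = 0.909). Leaving out wild-type library 1 gave 0.28, and leaving out wild-type library 3 gave -0.10. Pemt encodes phosphatidylethanolamine N-methyltransferase, which makes phosphatidylcholine. It was at 240, 416, 424, 427 and 373 CPM in knockout and 321, 305 and 395 CPM in wild-type libraries. Knockout libraries 2 to 4 lay above all wild-type libraries and knockout library 1 below them. The Pemt log2 fold change was 0.14 (95% interval -0.32 to 0.60, edgeR adjusted p = 0.745), and without knockout library 1 it was 0.26 (-0.05 to 0.58, adjusted p = 0.270). Leaving out wild-type library 2 gave 0.06, and leaving out wild-type library 3 gave 0.26. Gamt encodes guanidinoacetate N-methyltransferase, the last enzyme of creatine synthesis. It was at 156, 183, 177, 259 and 186 CPM in knockout and 161, 151 and 229 CPM in wild-type libraries. Knockout library 4 and wild-type library 3 were high and the other libraries lay close together, and the log2 fold change was 0.09 (95% interval -0.36 to 0.55, edgeR adjusted p = 0.836). It was 0.30 without wild-type library 3 and -0.04 without knockout library 4. Gnmt, Pemt and Gamt are the 3 shortest of the members, at 1042, 848 and 960 bases. With a correction for gene length their log2 fold changes turned to -0.22, -0.18 and -0.17, none of them called (edgeR adjusted p of 0.701, 0.621 and 0.636), and with knockout library 1 also out they were -0.32, -0.10 and -0.16.

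Ahcy encodes adenosylhomocysteine hydrolase, which cleaves the product of methyl transfer to homocysteine and adenosine. It was at 1520, 2577, 1748, 2060 and 3178 CPM in knockout libraries 1 to 5 and 1919, 1701 and 1911 CPM in wild-type libraries. The wild-type libraries lay within a narrow band, while knockout libraries spread from below it to well above it. The log2 fold change was 0.27 (95% interval -0.26 to 0.79, edgeR adjusted p = 0.599). It was 0.10 without knockout library 5, the highest, and 0.37 without knockout library 1, the lowest. With the shared stretches described above, these values may hold reads of more than 1 gene.

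Bhmt encodes betaine-homocysteine methyltransferase, which returns homocysteine to methionine with a methyl group of betaine. It was at 3595, 3554, 2384, 4379 and 3838 CPM in knockout and 4700, 3808 and 1673 CPM in wild-type libraries. Both the highest and the lowest level of the 8 libraries were wild type. The log2 fold change was 0.06 (95% interval -0.61 to 0.74, edgeR adjusted p = 0.929), the widest interval among the members. The sign hung on single wild-type libraries: the fold change was -0.26 without wild-type library 3 (adjusted p = 0.491) and 0.38 without wild-type library 1 (adjusted p = 0.781).

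Cbs and Cth encode the enzymes of transsulfuration, cystathionine beta-synthase, which joins homocysteine and serine, and cystathionine gamma-lyase, which releases cysteine. Cbs was at 519, 354, 535, 391.6 and 364 CPM in knockout libraries 1 to 5 and 659, 709 and 371 CPM in wild-type libraries. Wild-type libraries 1 and 2 lay above every knockout library and wild-type library 3 lay among the lowest. The log2 fold change of Cbs was -0.42 (95% interval -0.95 to 0.10, edgeR adjusted p = 0.427), the smallest p of the members. It was -0.66 without wild-type library 3 (adjusted p = 0.142) and -0.26 without wild-type library 2. With knockout library 1 and wild-type library 3 both out, the fit chosen after seeing the data, it was -0.73 (adjusted p = 0.0204). Cth was at 322, 556, 341, 516 and 625 CPM in knockout and 486, 374 and 277 CPM in wild-type libraries. Knockout libraries 2, 4 and 5 lay above all wild-type libraries and knockout libraries 1 and 3 within their range. The log2 fold change of Cth was 0.32 (95% interval -0.27 to 0.91, edgeR adjusted p = 0.581), and it was 0.14 without wild-type library 3, 0.54 without wild-type library 1 and 0.20 without knockout library 5. The pair of fitted values had opposite signs, and a difference between them was not tested.

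Shmt1 encodes the cytosolic serine hydroxymethyltransferase, which transfers a one-carbon unit between serine and folate. It was at 218, 213, 249.2, 260 and 209 CPM in knockout and 312, 255 and 247 CPM in wild-type libraries. Knockout libraries 1, 2 and 5 lay below all wild-type libraries and knockout libraries 3 and 4 within their range. The log2 fold change was -0.24 (95% interval -0.57 to 0.09, edgeR adjusted p = 0.462), the narrowest interval of the members, and it was -0.13 without wild-type library 1.

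**Figure D2:**
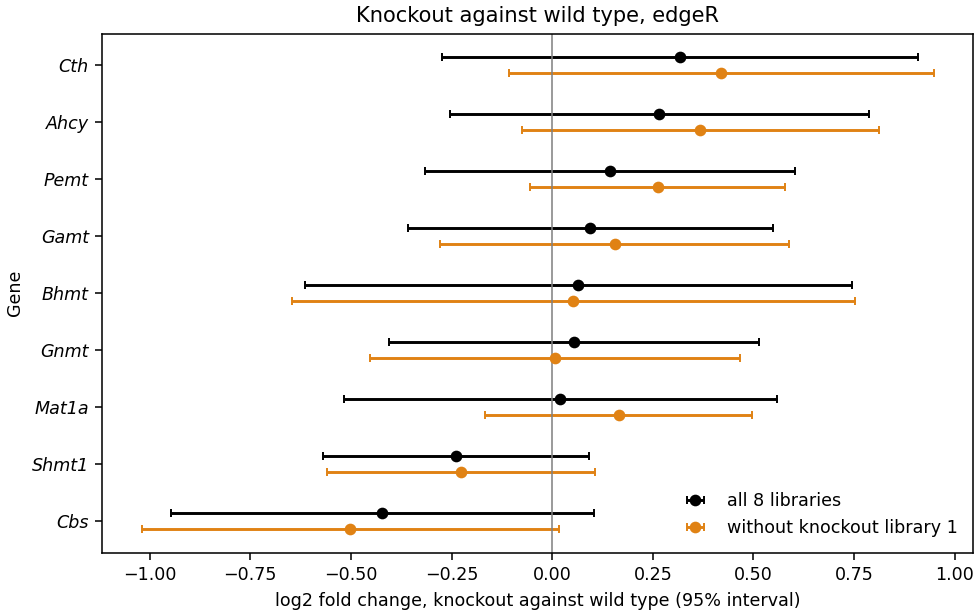
Log2 fold change of each of the 9 genes, knockout against wild type, with 95% intervals from edgeR, with all 8 libraries (black) and without knockout library 1 (orange). All 18 intervals include 0.

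The members did not all vary together. Wild-type library 3 was low for Bhmt, Cth, Gnmt and Cbs, with deviations from their 8-library means of -0.995, -0.60, -0.38 and -0.34 log2 units, and high for Gamt, at 0.31. Knockout library 1 was low for Mat1a, Pemt, Ahcy and Cth, at -0.81, -0.57, -0.41 and -0.39 log2 units, while Bhmt, Gnmt and Cbs were 0.11, 0.19 and 0.14 above their means there. Cbs ran opposite to Cth in knockout libraries 2 to 5, with Cbs at -0.41, 0.18, -0.27 and -0.37 and Cth at 0.40, -0.31, 0.29 and 0.57 log2 units from the mean. Their signs were also opposite in knockout library 1 and wild-type library 2. In wild-type library 1 both were above their means, at 0.48 and 0.21, and in wild-type library 3 both were below. Bhmt had the widest range over the libraries, 1.49 log2 units, and Shmt1 the narrowest, 0.58. Of the wild-type libraries, library 3 had the lowest periportal and the highest pericentral marker sum given above, and their part in these values was not tested.

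**Figure D3:**
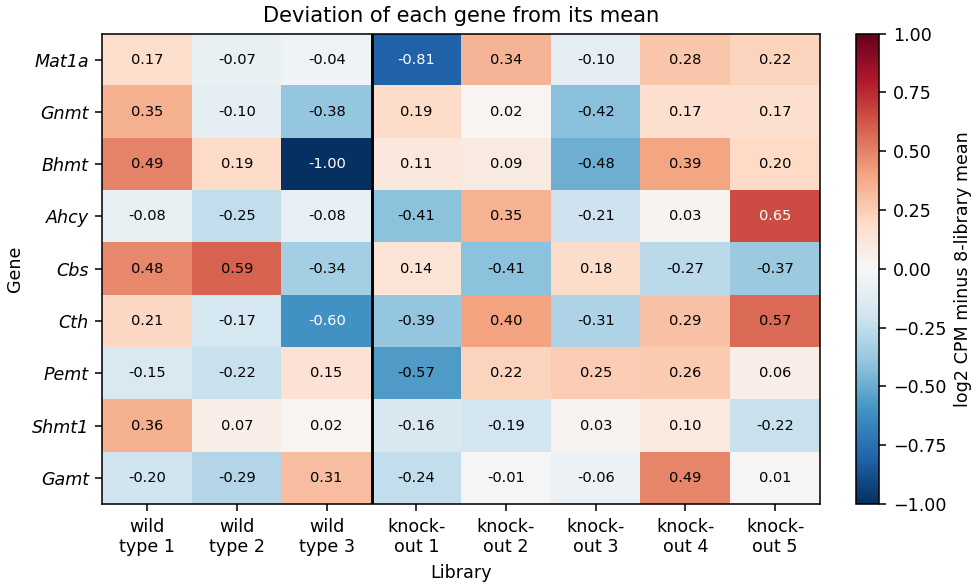
Log2 CPM of each gene minus its mean over the 8 libraries, for 3 wild-type (left) and 5 knockout libraries (right), red above and blue below the mean. The lowest cells are Bhmt in wild-type library 3 (-0.995) and Mat1a in knockout library 1 (-0.81).

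RefSeq promoters of 3 of the 4 genes with the lowest deviations in wild-type library 3 (GRCm38.p6, each on the minus strand) are shown for their sequence. These genes were picked by that 1 library, and a shared regulation was not tested. In all, 7 of the 9 members have a promoter entry, Pemt with 2 starts. Each sequence is the 250 bases before the start, and capitals mark matches on either strand to any of 7 motifs searched. The motifs were the TATA box with the letters TATAAA, the box named for its letters CCAAT, and the Sp1 binding box with the letters GGGCGG. The others were the E-box with the letters CACGTG and the cyclic AMP response element with the letters TGACGTCA. Also searched were the core of an HNF4A site with the letters CAAAGTCCA and a sterol-type motif with the letters TCACNCCAC.
Bhmt, chr13:93637759-93638008: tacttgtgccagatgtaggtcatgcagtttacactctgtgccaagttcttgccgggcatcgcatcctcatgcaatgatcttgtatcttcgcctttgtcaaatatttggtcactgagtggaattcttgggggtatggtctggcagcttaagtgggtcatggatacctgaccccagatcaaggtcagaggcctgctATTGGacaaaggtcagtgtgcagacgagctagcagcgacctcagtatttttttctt
Gnmt, chr17:46729166-46729415: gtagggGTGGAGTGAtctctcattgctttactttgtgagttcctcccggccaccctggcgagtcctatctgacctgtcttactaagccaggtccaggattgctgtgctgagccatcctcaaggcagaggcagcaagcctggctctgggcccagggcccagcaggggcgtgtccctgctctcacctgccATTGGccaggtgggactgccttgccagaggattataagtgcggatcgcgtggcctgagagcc
Cbs, chr17:31637206-31637455: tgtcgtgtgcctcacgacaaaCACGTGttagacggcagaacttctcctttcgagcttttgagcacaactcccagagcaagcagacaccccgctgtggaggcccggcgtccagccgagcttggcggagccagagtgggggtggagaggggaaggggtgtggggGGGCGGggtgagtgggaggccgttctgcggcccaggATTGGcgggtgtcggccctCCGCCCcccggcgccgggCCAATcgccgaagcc
The Bhmt window holds 1 CCAAT match and none of the other motifs. The Gnmt window holds 1 CCAAT and 1 TCACNCCAC match. The Cbs window holds 2 CCAAT, 2 Sp1 box and 1 E-box matches and is richer in G and C, at 68.0% against 48.0% for Bhmt and 60.4% for Gnmt. Of 32851 promoters of this length, 33.9% hold CCAAT, 32.7% GGGCGG, 6.02% CACGTG, 12.4% TATAAA, 1.55% TGACGTCA, 0.384% CAAAGTCCA and 1.05% TCACNCCAC. No matches overlap in these 3 windows, and a match is a description of the letters only.

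Relative to their homologues, read per length, the members of 4 families did not pass a test that had little power with these libraries. Mat1a was 21.5, 26.8, 38.2, 35.4 and 23.0 times Mat2a, the form of other tissues and of fetal and growing liver, in knockout libraries 1 to 5. In wild-type libraries 1 to 3 it was 62.0, 50.6 and 25.4 times Mat2a. Wild-type libraries 1 and 2 were above all knockout libraries and wild-type library 3 was among them. The difference in the mean log2 ratio was -0.61 (knockout 4.82 ± 0.37, SD, n = 5; wild type 5.43 ± 0.67, n = 3), and an exact permutation test (two-sided, all 56 divisions of the libraries) gave p = 0.179, or 0.536 adjusted over 5 ratios. The two-sided p of this exact permutation test is 2 times the smaller one-sided p. The smallest one-sided p this design allows is 0.0179, so the two-sided p cannot be as small as that. Without wild-type library 3 the difference was -0.99.

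Bhmt was 9.54 to 17.7 times Bhmt2, which methylates homocysteine from another donor, in knockout and 8.32 to 15.2 times in wild-type libraries (difference 0.22 log2 units). Ahcy was 21.7 to 44.6 times Ahcyl1, a homologue that binds the inositol trisphosphate receptor, in knockout and 21.3 to 25.7 times in wild-type libraries (difference 0.36). Shmt1 was 1.18 to 2.01 times Shmt2, the mitochondrial form, in knockout and 1.44 to 1.81 times in wild-type libraries (difference -0.02). For these 3 ratios the exact two-sided permutation p was 0.5, 0.214 and 0.929, and for Ahcy over Ahcyl2, which had a difference of 0.50 log2 units, it was 0.393. The adjusted values were 0.536 to 0.929.

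**Figure D4:**
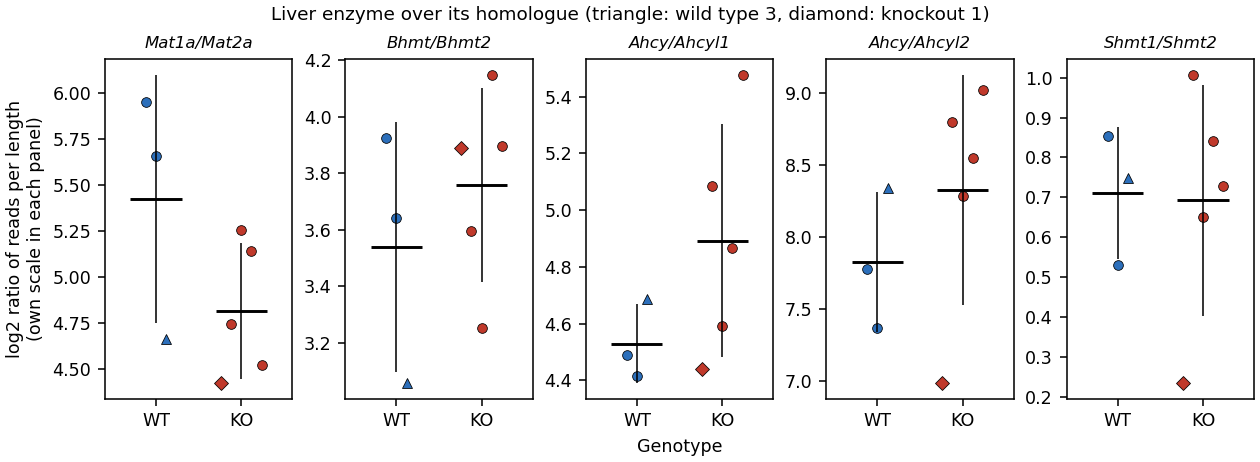
Log2 ratio of each liver enzyme to its homologue, in reads per length, for 3 wild-type (WT, blue) and 5 knockout (KO, red) libraries, with group means and SD as bars and a separate axis in each panel. For Mat1a over Mat2a wild-type libraries 1 and 2 lie above all knockout libraries and wild-type library 3 (triangle) lies among them.

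A further 85 genes were listed in 7 branches around the members, and 81 of them could be tested. By edgeR with all libraries 0 of 81 were called in either direction, and 12 (14.8%) had an unadjusted p below 0.05, against 13.6% of all tested genes. Their median log2 fold change was -0.09, with 34 positive and 47 negative. Knockout and wild-type levels did not overlap for 1 of the 81 higher and 2 lower in knockout, against 3.04% and 3.61% of all tested genes. DESeq2 with all libraries called 2 of 81, Hnmt higher and Odc1 lower, against 0.435% of all genes higher and 0.449% lower. Without knockout library 1, edgeR called 1 higher, Hnmt, and 1 lower, Csad, against 0.415% and 0.513% of all genes. DESeq2 without that library, a fit chosen after seeing the data, called 5 higher and 4 lower against 5.52% and 3.09%. The 9 were Csad, Gclc, Sds, Odc1, Sms, Hnmt, Inmt and Chpt1, and Sat1, which was named after its value was seen.

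In the outflow from transsulfuration, 0 of 10 tested genes were called with all libraries (median -0.05). Csad, which makes hypotaurine on the way to taurine, was at 417, 262, 220, 203 and 213 CPM in knockout and 435, 566 and 367 CPM in wild-type libraries. Knockout libraries 2 to 5 lay below every wild-type library and knockout library 1 within their range. Its log2 fold change was -0.79 (95% interval -1.36 to -0.23, edgeR adjusted p = 0.327), and without knockout library 1 Csad fell by 1.03 on the log2 scale (SE 0.17, edgeR adjusted p = 0.0264, DESeq2 adjusted p = 1.16e-05). Gclc, the catalytic subunit of the enzyme that starts glutathione synthesis, was at 222 ± 43.1 (SD, n = 5) against 325 ± 68.4 CPM (n = 3), with a log2 fold change of -0.55 (edgeR adjusted p = 0.333). Tst, a sulfurtransferase of mitochondria, had 0.21 (adjusted p = 0.521).

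In the polyamine branch, 0 of 10 genes were called by edgeR (median -0.10). Odc1, ornithine decarboxylase, was at 50.1, 52.8, 52.0, 50.9 and 44.0 CPM in knockout and 61.3, 80.3 and 75.0 CPM in wild-type libraries. The groups did not overlap, which held for 3.61% of tested genes in that direction. Its log2 fold change was -0.53 (SE 0.13, edgeR adjusted p = 0.254, DESeq2 adjusted p = 0.0456). Sms, spermine synthase, had a log2 fold change of 0.82 (edgeR adjusted p = 0.322) and Apip, an enzyme of methionine salvage, 0.59 (adjusted p = 0.338).

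Among 12 other methyltransferases that use SAM, 0 were called by edgeR with all libraries (median -0.02). Hnmt, which methylates histamine, was at 16.8, 34.8, 21.6, 31.7 and 27.7 CPM in knockout and 16.4, 11.4 and 13.9 CPM in wild-type libraries. The groups did not overlap, which held for 3.04% of tested genes in that direction, and the margin was narrow at knockout library 1. Its log2 fold change was 0.93 (SE 0.24, edgeR adjusted p = 0.272, DESeq2 adjusted p = 0.0485), and without knockout library 1 Hnmt rose by 1.05 (SE 0.20, edgeR adjusted p = 0.0439), a call lost when gene length was also corrected (0.92, adjusted p = 0.0652). Inmt, indolethylamine N-methyltransferase, was at 326, 1932, 738, 1363 and 1663 CPM in knockout and 430, 343 and 884 CPM in wild-type libraries, a log2 fold change of 1.12 (edgeR adjusted p = 0.377). Icmt, which methylates prenylated proteins, had -0.39 (adjusted p = 0.333).

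No gene of the remaining 4 branches was called by edgeR with all libraries. Of 8 other methionine cycle genes (median -0.10), Mat2a was at 102 ± 33.2 against 70.1 ± 31.9 CPM (log2 fold change 0.55, edgeR adjusted p = 0.441). For Mat2a, leaving out wild-type library 3 gave 0.99, and leaving out wild-type library 1 gave 0.36. Mat2b, its regulatory partner, had 0.49 (adjusted p = 0.432), and 0.74 without wild-type library 3. The homologues Bhmt2, Ahcyl1, Ahcyl2 and Shmt2 had log2 fold changes of -0.08, -0.15, -0.27 and -0.20. With single libraries left out these ran from -0.25 to 0.03, -0.20 to -0.09, -0.54 to -0.09 and -0.31 to -0.10. Of 18 tested folate cycle genes (median -0.01), Ggh, a folate polyglutamate hydrolase, had 0.64 (adjusted p = 0.356) and Mthfd2l 1.12 (adjusted p = 0.333).

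In the branch of glycine, serine and choline metabolism 14 genes were tested (median -0.18). Sds, serine dehydratase, was at 68.1, 83.5, 80.1, 62.9 and 103 CPM in knockout and 112, 127 and 120 CPM in wild-type libraries. The groups did not overlap, which held for 3.61% of tested genes in that direction. The log2 fold change of Sds was -0.59 (SE 0.17, edgeR adjusted p = 0.301). Amt, of the glycine cleavage system, had -0.69 (adjusted p = 0.356). Psat1, of serine synthesis, had -1.02 (adjusted p = 0.374), a value set by wild-type library 3 at 12.1 CPM against 3.02 and 2.30 CPM in wild-type libraries 1 and 2, and it was 0.10 without that library. In the branch of phospholipid synthesis from choline and ethanolamine 9 genes were tested (median -0.01). Chpt1 had a log2 fold change of 0.75 (edgeR adjusted p = 0.333). Pcyt1a is the rate-limiting step of the CDP-choline route to phosphatidylcholine, the alternative to Pemt. Its log2 fold change was -0.27 (edgeR adjusted p = 0.417), or -0.13 without wild-type library 1. Chka, choline kinase alpha, was at 38.4 ± 11.8 (SD, n = 5) against 72.6 ± 46.7 CPM (n = 3), with wild-type library 3 the lowest of all 8 libraries (log2 fold change -0.92, edgeR adjusted p = 0.373). Leaving out wild-type library 2 gave -0.48, and leaving out wild-type library 3 gave -1.36.

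**Figure D5:**
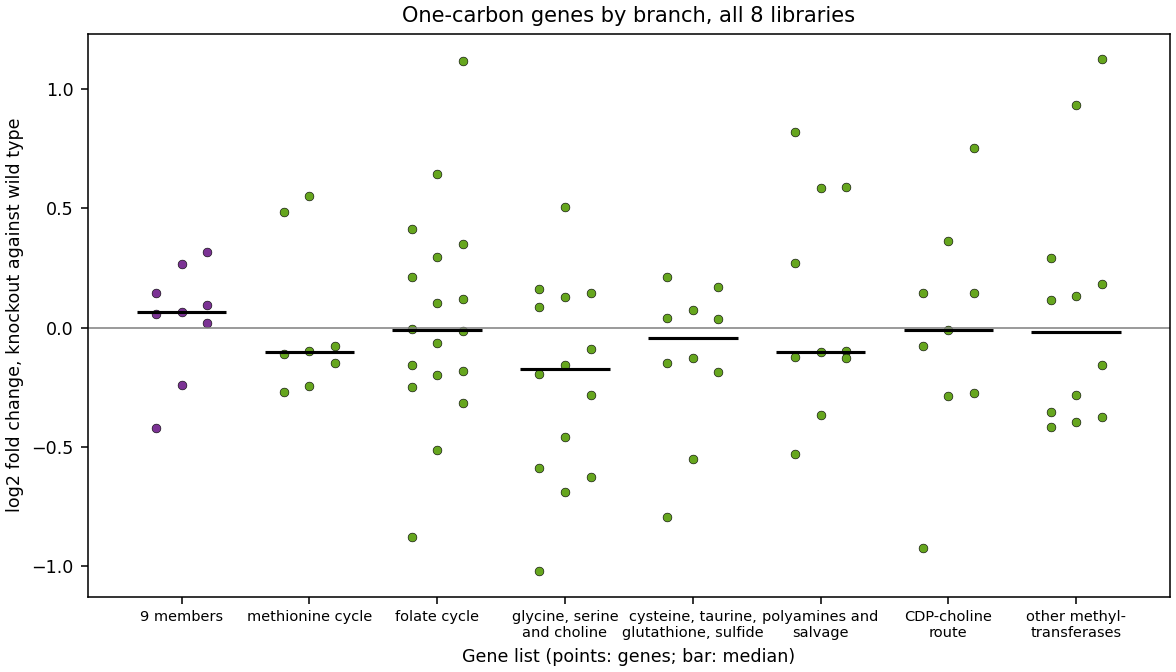
Log2 fold change of each gene, knockout against wild type with all 8 libraries, for the 9 members and the 81 tested genes of 7 branches of one-carbon metabolism, with a bar at each median. The members lie between -0.42 and 0.32 and no gene shown was called by edgeR.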

How the data were processed

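The authors deposited 1 table with 19464 rows for 8 liver libraries. Its columns, per the file headers, are a gene's unique read count, the percent of its length covered and its RPKM, once per library. The deposited RPKM equalled values recomputed from the counts. Aligner, counter, genome build, annotation, strandedness and read length: not given in the sources used here. A dash was read as 0, and reads were summed for 113 identifiers on several rows. Groups and replicate numbers came from the titles.

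edgeR 4.0.16 under R 4.3.3 tested the deposited counts (filterByExpr, TMM scaling, quasi-likelihood F test, no covariate, Benjamini-Hochberg over 12338 genes), and the scripts were first tested on simulated data. Intervals used the test's degrees of freedom. DESeq2 1.42.0, other scalings, no filter, a length correction, a replicate block and leaving out each library were the alternatives. Others, chosen after seeing the data, left out knockout library 1 under DESeq2 or with the length correction, or knockout library 1 and wild-type library 3 together. Promoters were searched for 7 motifs. The labels do not tie libraries to separate mice, so the p-values reflect only differences among libraries, which may be technical. All 13 pairs of libraries within a group differed by more than sampling noise.

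The members and the lists were chosen with earlier results of these data known. All 9 members were named. Of the 85 other genes, matched by symbol or synonym through RefSeq, those called, up to 3 per branch with the smallest p and the members' homologues were named. Of the genes this would name, or that Dixon's gap was applied to, 2 are not reported here. Figures used matplotlib 3.10.9.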

Additional observations from a re-analysis of the deposited data

Results flagged for a closer look

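Among the 5 knockout libraries, 1 library lay far from the others for 9 of the 88 one-carbon genes considered (Dixon's gap over range above 0.71). No member was among them, though Pemt in knockout library 1 and Gamt in knockout library 4 came just under that cutoff. Chance flags about 1 in 20 groups. For 7 of the 9 flagged genes it was knockout library 1, the shallowest library and by its sex-linked reads the only male one. The part of either in these values was not tested.

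Knockout library 1 was high for Csad, at 417 CPM against at most 262 CPM in the other knockout libraries, for Ahcyl2 at 24.5 against 12.5 CPM and for Mthfd2, a mitochondrial folate enzyme, at 4.30 against 1.70 CPM. It was low for Pipox, which oxidises pipecolate and sarcosine, at 295 CPM against at least 376 CPM in the others. It was also low for Gss, glutathione synthetase, at 66.1 against 87.7 CPM, for Cept1, of phosphatidylcholine synthesis, at 59.7 against 89.9 CPM and for As3mt, arsenic methyltransferase, at 29.5 against 50.5 CPM. Amt was high in knockout library 3, at 35.1 against 24.1 CPM, and Ethe1, of sulfide oxidation, in knockout library 4, at 96.4 against 86.3 CPM.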

How the results depend on the processing

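Of 17 alternative settings, 16 called 0 of 9 members. With knockout library 1 and wild-type library 3 both left out, a fit chosen after seeing the data, 1 member was called, Cbs (log2 fold change -0.73, edgeR adjusted p = 0.0204), together with 24 other one-carbon genes and 2482 of all genes (19.9%). In that fit Gnmt was at -0.14, Bhmt at -0.26 and Psat1 at 0.076. All genes called numbered 28 with all libraries, 8 with the replicate block, 130 by DESeq2, 1057 by DESeq2 without knockout library 1 (also chosen after seeing the data), 75 with the length correction and knockout library 1 out (chosen after seeing the data), and 13 to 114 with single libraries left out. Other one-carbon genes called numbered 2 by DESeq2, 9 by DESeq2 without knockout library 1, 1 with the length correction and knockout library 1 out, and 0 to 2 with single libraries left out. The length correction moved the members' median log2 fold change to -0.17 and gave -0.22 for Gnmt, -0.18 for Pemt, -0.17 for Gamt and -0.034 for Tst. With knockout library 1 also out it gave -0.32 for Gnmt, -0.0058 for Bhmt, -0.10 for Pemt, -0.16 for Gamt and -0.0005 for Tst. Upper-quartile scaling gave -0.0027 for Mat1a. The replicate block gave -0.20 for Mat1a, -0.025 for Gnmt and -0.045 for Gamt. The deviations of same-numbered libraries from their group means, over genes, correlated at 0.12, -0.15 and -0.15. For libraries of unlike number the correlations ran from -0.28 to 0.31. With only 3 wild-type libraries these values cannot decide whether the numbers pair the libraries. With single libraries left out, log2 fold changes ran from -0.062 to 0.17 for Mat1a, -0.10 to 0.28 for Gnmt, -0.26 to 0.38 for Bhmt, -0.036 to 0.30 for Gamt, -0.25 to 0.029 for Bhmt2 and -1.41 to 0.098 for Psat1. The cause of these changes was not tested. Each member had at least 797 reads in any library.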

Other observations

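The genes whose levels ran most like the members' mean were sought among 7915 tested genes with a mean of at least 10 CPM. The members' mean was that of the standardised log2 CPM of the 9 members over the 8 libraries. The members did not all vary together, so this mean does not stand for each of them. The 5 closest were Sparc (Pearson's r = 0.98), Dmgdh (0.94), Xrcc6 (0.93), Rhbg (0.92) and Dmd (0.91), given as a description over 8 libraries scaled by 1 set of factors, of which knockout library 1 was the shallowest. Sparc, which encodes a matrix protein, was at 125, 201, 165, 230 and 217 CPM in knockout libraries 1 to 5 and 225, 173 and 161 CPM in wild-type libraries 1 to 3. Dmgdh encodes dimethylglycine dehydrogenase, which acts on the dimethylglycine that Bhmt releases. It was at 370, 509, 441, 555 and 533 CPM in knockout and 629, 512 and 396 CPM in wild-type libraries. Both genes were lowest in knockout library 1, and within wild type lowest in library 3. The members' mean was lowest in the same libraries, at -0.75 and -0.47, so this followed from how the genes were picked.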
